A study of Mus musculus with 14 samples.

Results

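The loci of 10 genes of the basic helix-loop-helix PAS (bHLH-PAS) family, to which SIM2 itself belongs, were examined in ChIP-seq peak lists of mouse embryonic stem (mES) cells. The genes were Sim1, Arnt, Arnt2, Arntl, Hif1a, Epas1, Ahr, Npas2, Npas3 and Clock. GENCODE vM1, the annotation of the mm9 assembly, lists 22380 protein-coding genes, of which these are 10, and each locus was the gene body plus 100 kb on either side. All called peaks centred in these windows were taken, which gave 41 of the 24416 peaks in 8 lists.

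The cells were clonal mES lines in which a FLAG-tagged mouse Sim2 transgene is driven from the ROSA-TET locus by the tetracycline-regulated hCMV*-1 promoter. Clone A6 (replicate 1), clone B8 (replicate 2) and clone C4 (replicate 3) were studied by FLAG ChIP, as was the parental EB3 line without the transgene, and clone A6 also by 1 ChIP each for NANOG, OCT4, MED1 and MED12. All cells, EB3 included, had been kept without tetracycline for 26 h. The SIM2 measured is therefore the transgene product in stem cells, not endogenous SIM2, and each factor has no replicate. A SIM2 site was a position where FLAG peak centres of at least 2 clones lay within 100 bp of each other and no EB3 peak centre lay within 100 bp, and there were 1229 of them.

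The bHLH-PAS proteins bind DNA as dimers. SIM1, SIM2, HIF1A, EPAS1, AHR and NPAS3 each pair with a general partner, ARNT or ARNT2, while CLOCK and NPAS2 pair with ARNTL in the circadian clock. The dimers recognise short core sequences. Among them are ACGTG for SIM and HIF proteins with ARNT, GCGTG for AHR with ARNT, and the E-box CACGTG for CLOCK with ARNTL. A core is not exclusive to the dimer named beside it. SIM2 is a regulator of midline and brain development, and NANOG and OCT4 maintain the pluripotent state of the cells used here. MED1 and MED12 are subunits of Mediator, the complex that links enhancers to RNA polymerase II.

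Called SIM2 binding at the genes of its own family was too sparse to be placed above or below the level of genes in general. A SIM2 site lay at 1 of the 10 genes, Npas3, and it was 1 site, whereas 13.4% of all protein-coding genes had a site within the same distance. A FLAG peak in any clone was found at 4 genes (Arnt2, Epas1, Npas3 and Clock), against 28.5% of protein-coding genes. No FLAG peak of any clone lay within 100 kb of Sim1, Arnt, Arntl, Hif1a, Ahr or Npas2. Of the partner genes, Arnt and Arntl were thus without a called SIM2 peak, while Arnt2 had a FLAG peak in B8 alone.

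The 200 bp around the centre of each of the 6 positions with a FLAG peak are shown, since they are all the SIM2 sequences at these genes and differ in the dimer cores they hold. They are plus-strand sequences of mm9. Capitals mark exact matches on either strand to the 3 dimer cores above, to the OCT4 octamer ATGCAAAT or to a SOX core, which was searched as ACAAAG or, in its other form, as ACAATG.
Npas3, 30.5 kb beyond the 3′ end, clones A6 and B8 (chr12:55203553-55203752): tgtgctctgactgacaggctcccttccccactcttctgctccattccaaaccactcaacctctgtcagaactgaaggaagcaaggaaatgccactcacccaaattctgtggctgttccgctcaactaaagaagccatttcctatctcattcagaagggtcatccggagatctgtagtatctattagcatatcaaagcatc
Npas3, 39.0 kb beyond the 3′ end, clone A6 (chr12:55212089-55212288): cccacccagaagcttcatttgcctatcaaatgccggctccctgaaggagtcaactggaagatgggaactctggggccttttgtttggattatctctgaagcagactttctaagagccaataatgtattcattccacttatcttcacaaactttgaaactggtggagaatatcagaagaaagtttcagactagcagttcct
Epas1, 85.7 kb upstream, clone B8 (chr17:87067433-87067632): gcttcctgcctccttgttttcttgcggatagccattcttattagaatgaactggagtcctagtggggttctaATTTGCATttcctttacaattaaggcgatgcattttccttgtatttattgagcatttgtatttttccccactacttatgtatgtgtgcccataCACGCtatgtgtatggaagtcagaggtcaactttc
Epas1, 2.21 kb upstream, clone B8 (chr17:87150935-87151134): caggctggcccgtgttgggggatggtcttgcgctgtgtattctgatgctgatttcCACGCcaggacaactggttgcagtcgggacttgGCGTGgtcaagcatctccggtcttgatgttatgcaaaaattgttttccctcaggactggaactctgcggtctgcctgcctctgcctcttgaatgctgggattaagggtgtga
Arnt2, intron, clone B8 (chr7:91509784-91509983): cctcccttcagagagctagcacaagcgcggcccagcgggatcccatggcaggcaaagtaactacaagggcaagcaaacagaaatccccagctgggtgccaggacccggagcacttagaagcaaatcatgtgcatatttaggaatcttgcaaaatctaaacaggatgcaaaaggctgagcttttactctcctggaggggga
Clock, 64.6 kb upstream, clone B8 (chr5:76798314-76798513): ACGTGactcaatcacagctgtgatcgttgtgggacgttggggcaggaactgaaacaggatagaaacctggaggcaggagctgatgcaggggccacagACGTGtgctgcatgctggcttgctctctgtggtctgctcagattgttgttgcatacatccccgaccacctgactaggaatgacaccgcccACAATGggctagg

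Both Npas3 windows and the Arnt2 window held none of these letter strings. The Epas1 window at 85.7 kb held an octamer 27 bp before its centre and 1 GCGTG. The Epas1 window at 2.21 kb held 2 GCGTG matches, of which the nearer started 11 bp before the centre. The Clock window was the only one of the 6 with ACGTG, the core of the SIM and ARNT dimer, and 1 of its 2 matches started 2 bp before the centre. It was also the only window with no peak of another factor.

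Among the 1229 SIM2 sites, 14.1% held ACGTG within 200 bp, 13.3% GCGTG, 2.20% CACGTG, 7.40% the octamer and 46.9% a SOX core. At positions 10 kb to either side of these sites the shares were 9.36%, 11.2%, 2.52%, 1.02% and 28.6%. Around the centres of 14814 NANOG peaks of the list they were 5.41%, 6.78%, 1.25%, 6.96% and 48.1%. The octamer and SOX shares of SIM2 sites were thus near those of NANOG peaks in general, while the ACGTG and GCGTG shares were higher. Of the windows shown above, 5 were called in 1 clone only. Over the 2336 such positions the shares, in the same order, were 9.25%, 9.76%, 1.76%, 5.22% and 39.7%. A split added after the Clock window had been seen took the sites of any clone, the Clock position among them. ACGTG was in 14.2% (95% Wilson interval 12.4 to 16.3%) of the 1238 without a NANOG peak. It was in 9.15% (8.05 to 10.4%) of the 2327 with one, beside 5.41% of the NANOG peaks of the list. The octamer ran the other way, at 3.88% without NANOG and 7.09% with it. These shares run over sites of the same libraries, which are not replicates, and a match is not a binding site.

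The clones did not give equal numbers of peaks at these genes. A6 had 2 peaks, both at Npas3, B8 had 5 at 4 genes, and C4 had none. That was 2.33 ± 2.52 peaks (SD, n = 3) per clone against 0 in the EB3 control, where an exact permutation test of 3 clones against 1 library cannot give a two-sided p below 0.25. As shares of a list, the peaks at these genes made up 0.0838% of the 2387 A6 peaks (95% Wilson interval 0.023 to 0.305%) and 0.234% of the 2137 B8 peaks (0.1 to 0.547%), and these intervals overlap. The C4 list holds 631 peaks, so that its 0 allows a share of up to 0.475%, and the 81 EB3 peaks allow up to 3.70%. The windows cover 0.197% of the sequence in all gene windows, a share inside the A6 and B8 intervals and below both limits. The list shares also count peaks outside gene windows, so the denominators differ. The background per list was 23.0% of genes with an A6 peak, 19.8% with a B8 peak, 6.06% with a C4 peak and 1.14% with an EB3 peak.

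**Figure D1:**
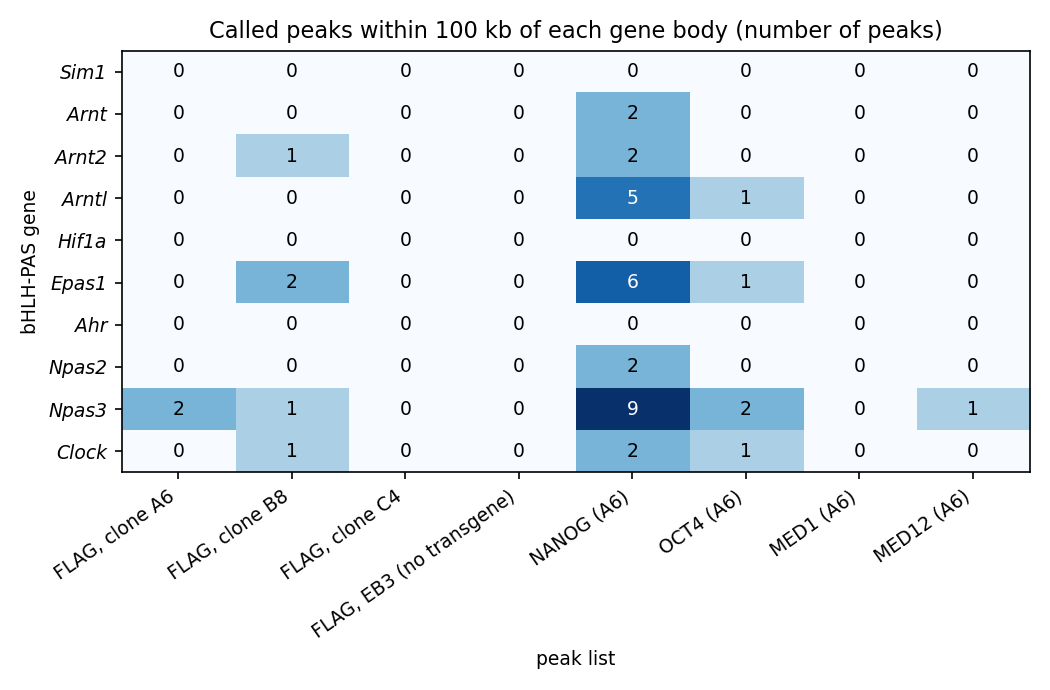
Number of called peaks within 100 kb of each gene body, with the 10 bHLH-PAS genes in rows and the 8 peak lists in columns. Sim1, Hif1a and Ahr are at 0 in every list, NANOG peaks occur at 7 genes, and Npas3 has the most peaks, 15 in all.

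NANOG accounted for 28 of the 41 peaks, at 7 of the 10 genes, where 67.6% of all protein-coding genes had a NANOG peak. OCT4 had 5 peaks at 4 genes (background 21.8%), MED12 had 1 peak at 1 gene (10.9%) and MED1 had none (7.97%). With 762 peaks in its list, the MED1 count of 0 allows a share of up to 0.394% and does not show that MED1 was absent. The lists without a peak at any of these genes were thus C4, EB3 and MED1. Sim1, Hif1a and Ahr had no peak of any list, as did 29.5% of protein-coding genes, and Arnt and Npas2 had NANOG peaks alone. Per megabase of window, SIM2 sites numbered 0.272 at these genes and 0.588 over all protein-coding genes, FLAG sites of any clone 1.63 and 1.58, and NANOG peaks 7.62 and 6.55.

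**Figure D2:**
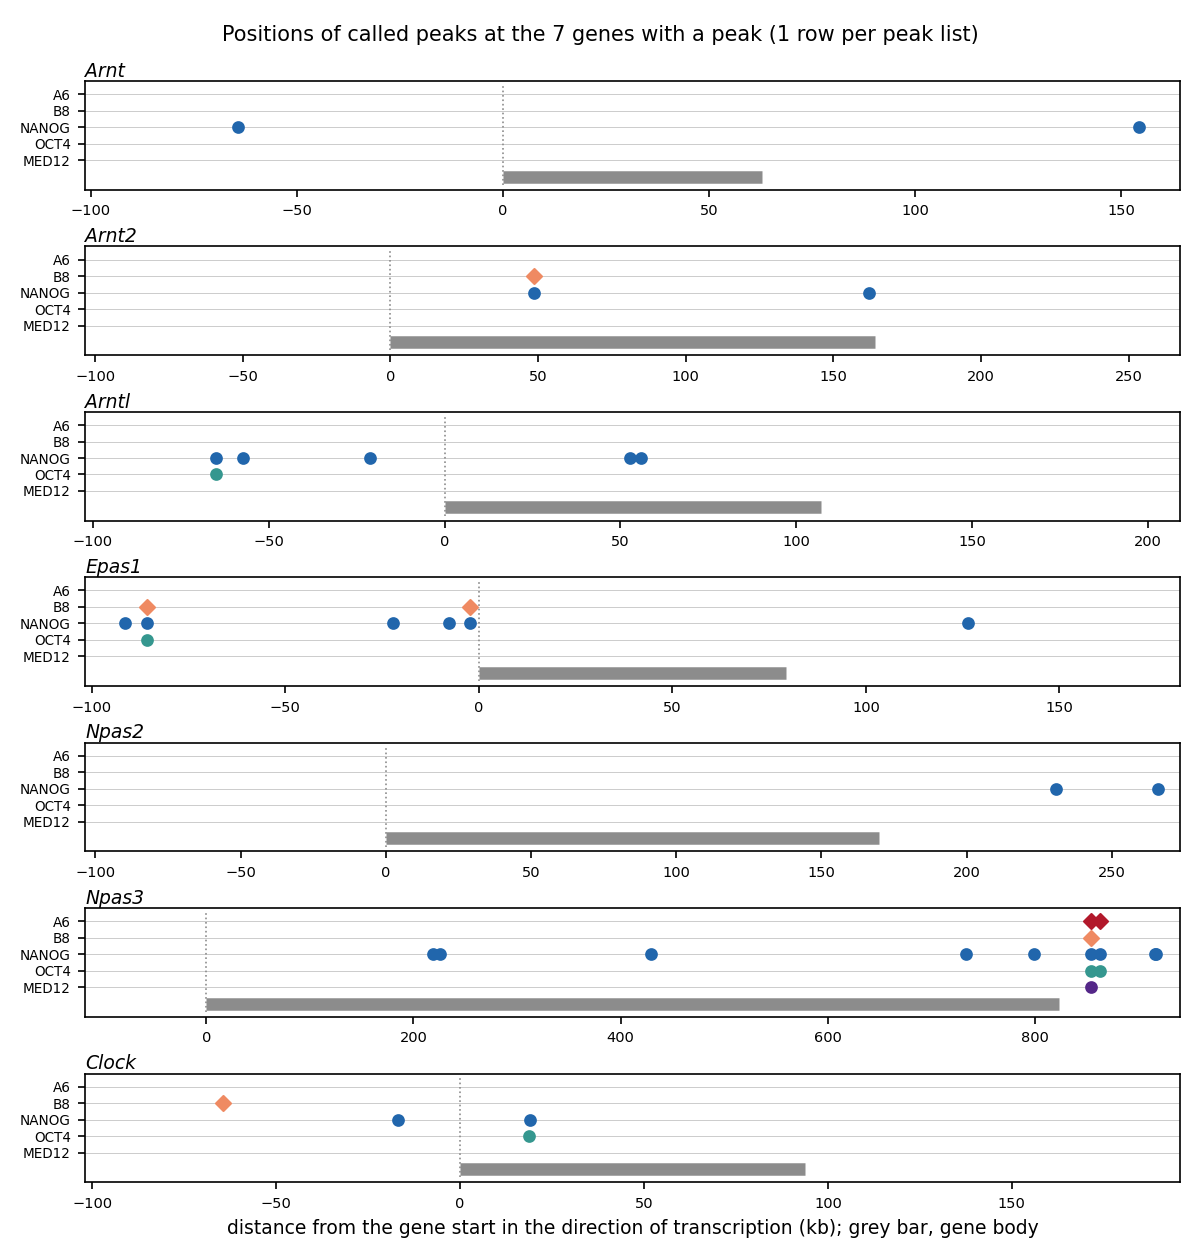
Positions of the called peaks at the 7 genes that have any, in kb from the gene start in the direction of transcription, with 1 row per list and the gene body as a grey bar. The FLAG peaks at Npas3 lie beyond its 3′ end, those at Epas1 and Clock lie upstream, and the one at Arnt2 is inside the gene.

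No peak of any list lay within 1 kb of a transcription start site of its own gene. The nearest was 2213 bp away, upstream of Epas1. Peaks inside the gene body occurred at 4 genes, and 20 of the 41 peaks were nearer to the start of another gene than to that of the bHLH-PAS gene whose window held them. The matching shares over all genes were not counted, so these counts cannot be read as a trait of the bHLH-PAS genes. The lists come from whole cell populations, so weak occupancy in all cells and occupancy of a few cells cannot be told apart.

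Npas3, a brain transcription factor gene of 823 kb on chromosome 12 (54349664 to 55173162, plus strand), held the only SIM2 site, and the site was intergenic, 30.5 kb beyond the 3′ end. Its normalized tag count, the tags in a peak scaled to library size, was 10.7 in A6 and 4.8 in B8, at 7.06 and 5.96 times the input, and no peak was called in C4. The A6 peak ranked 1265 of 2387 in its list and the B8 peak 880 of 2137, so it was a site of middling strength in both clones. The same position carried 1 of the strongest NANOG peaks of the cell line, with a tag count of 38.7, 44.71 times the input, ranking 40 of 14815. OCT4 had a tag count of 9.2 and ranked 196 of 2532, and MED12 had 4.7 and ranked 790 of 1071. The NANOG, OCT4 and MED12 centres lay within 7 bp of each other, with the A6 centre 61 bp and the B8 centre 32 bp from that of NANOG. Normalized tag counts of A6 and B8 are not comparable as sizes, because the relation of tag count to peak score differs between the lists.

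A neighbouring position, 39.0 kb beyond the 3′ end of Npas3, had the stronger A6 peak of the gene, with a tag count of 13.3, 8.75 times the input and rank 675 of 2387, but no peak in B8 or C4. NANOG (15.5, rank 1277 of 14815) and OCT4 (4.8, rank 1478 of 2532) lay there with centres 9 bp apart. So A6 was called at both positions and B8 only at the one where NANOG was stronger. The other 7 NANOG peaks at Npas3 had tag counts of 3.9 to 10.1 and no peak of another library, 5 of them in introns.

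The gene whose start lay nearest to both positions was not Npas3 but Egln3, at 101 and 92.7 kb. Egln3 encodes a prolyl hydroxylase that marks HIF alpha subunits for degradation, and its body lies 106.8 to 131.7 kb from the 3′ end of Npas3. Just outside the Npas3 window, at 106 kb and near the 3′ end of Egln3, a SIM2 site was called in all 3 clones, with a tag count of 15.4 in clone A6, of 6.1 in clone B8 and of 4.4 in clone C4. Each of these ranked higher in its list than the Npas3 site did where both were called, at 432 of 2387, 410 of 2137 and 320 of 631. NANOG (9.3) and OCT4 (3.8) coincided with it. The limit of 100 kb therefore kept out a SIM2 site that ranked higher in A6 and B8 than their peaks inside the Npas3 window.

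**Figure D3:**
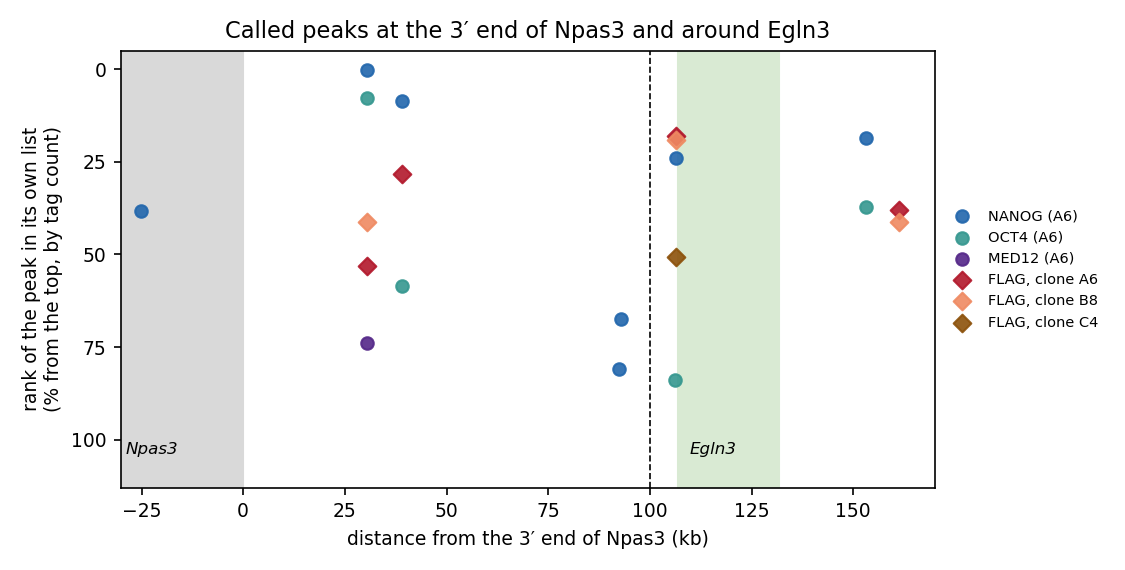
Called peaks from 30 kb before to 170 kb beyond the 3′ end of Npas3, plotted against their rank in their own list as a percentage from the top, for NANOG, OCT4 and MED12 (circles) and FLAG in A6, B8 and C4 (diamonds). Shaded bands are the Npas3 and Egln3 gene bodies and the dashed line is the limit of the 100 kb window. The NANOG peak at 30.5 kb is in the top 0.27% of its list, and C4 appears only at the Egln3 site at 106 kb.

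Arnt encodes the general dimerisation partner (chromosome 3, 95238310 to 95301162, plus strand). It had 2 NANOG peaks and no other peak. The stronger had a tag count of 11.6 and ranked 2418 of 14815, 64.1 kb upstream of Arnt and at -13.0 kb from the start of Setdb1, that is, upstream of it. The other had a tag count of 4.6 and lay at -229 bp from the start of Golph3l. The nearest SIM2 site was 156 kb from the Arnt gene body.

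Arnt2, the neural counterpart of Arnt (chromosome 7, 91394791 to 91558469, minus strand), had 1 FLAG peak, in an intron 48.6 kb from its start. It was called in B8 alone, with a tag count of 4.1, 4.68 times the input and rank 1278 of 2137, and in neither A6 nor C4. A NANOG peak of clone A6, with a tag count of 6.2, equal to the median of its list, had its centre 43 bp away. The other NANOG peak, of tag count 4.6, lay in an exon 162 kb from the start.

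Epas1 encodes the hypoxia-inducible factor HIF2A (chromosome 17, 87153247 to 87232750, plus strand), and it had 2 FLAG peaks, both in B8 alone. The NANOG and OCT4 peaks given beside them come from clone A6. At 85.7 kb upstream the B8 peak had a tag count of 3.4 and was 5.53 times the input, beside OCT4 (4.4, rank 1710 of 2532, centre 26 bp away) and NANOG (7.0, rank 5658 of 14815, 92 bp away). At 2.21 kb upstream the B8 peak also had 3.4 and 5.53, beside NANOG (7.7, rank 4821 of 14815, 7 bp away), which was the strongest NANOG peak of the gene. Both B8 peaks ranked 1704 of 2137 by tag count, or 79.7% from the top, and 893 of 2137 by fold over the input, or 41.8%. In all, 6 NANOG peaks with tag counts of 2.3 to 7.7 lay in the window. The nearest SIM2 site was 1680 kb away.

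Hif1a, the gene of the ubiquitous hypoxia-inducible alpha subunit (chromosome 12, 75002362 to 75048517, plus strand), had no peak of any list, and its nearest SIM2 site was 815 kb away. Ahr, the gene of the dioxin receptor (chromosome 12, 36182646 to 36219710, minus strand), also had none. A NANOG peak of tag count 26.3 (rank 244 of 14815) with OCT4 (8.2, rank 302 of 2532) lay at 108 kb from Ahr, just outside its window, without a FLAG peak. Sim1, the paralogue of Sim2 (chromosome 10, 50615457 to 50708958, plus strand), lay 626 kb from its nearest FLAG peak of any clone, against 139 kb for Hif1a and 404 kb for Ahr.

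Arntl encodes BMAL1, the partner of CLOCK (chromosome 7, 120350979 to 120457636, plus strand). By tag count it carried the second strongest NANOG peak among the 10 genes, 65.0 kb upstream, with a tag count of 26.3 and rank 244 of 14815, or 1.65% from the top. By fold over the input, 19.95, it ranked 903 of 14815 (6.10%), below the Npas3 peak at 39.0 kb, whose fold was 21.2. An OCT4 peak had its centre 1 bp away, with a tag count of 5.7 that ranked 940 of 2532 (37.1%) and a fold of 4.31 that ranked 2070 (81.8%), and no clone had a FLAG peak there. Over the 1155 NANOG peaks in the top 10% of the list, ties at the limit included, that had OCT4, 30.8% had a SIM2 site and 55.2% a FLAG peak in any clone. The other 4 NANOG peaks of Arntl had tag counts of 6.2 to 10.1. Its nearest SIM2 site was 516 kb away.

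Clock, a circadian regulator (chromosome 5, 76639992 to 76733817, minus strand), had 1 FLAG peak, in B8 alone and 64.6 kb upstream, with a tag count of 4.1, 4.68 times the input and rank 1278 of 2137. The start of Nmu was nearer, and the peak lay at -5.60 kb from it. An intronic NANOG peak 18.9 kb from the Clock start (10.8, rank 2761 of 14815) and an OCT4 peak (5.7, rank 940 of 2532) lay with centres 190 bp and edges under 100 bp apart, without SIM2. Just outside the window, at 107 kb, a SIM2 site of A6 (9.9) and B8 (4.1) coincided with NANOG (10.8) and MED12 (6.7). Npas2, the paralogue of Clock (chromosome 1, 39250576 to 39420079, plus strand), had 2 NANOG peaks of tag count 3.9 each, both in introns of Tbc1d8 beyond its 3′ end.

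**Figure D4:**
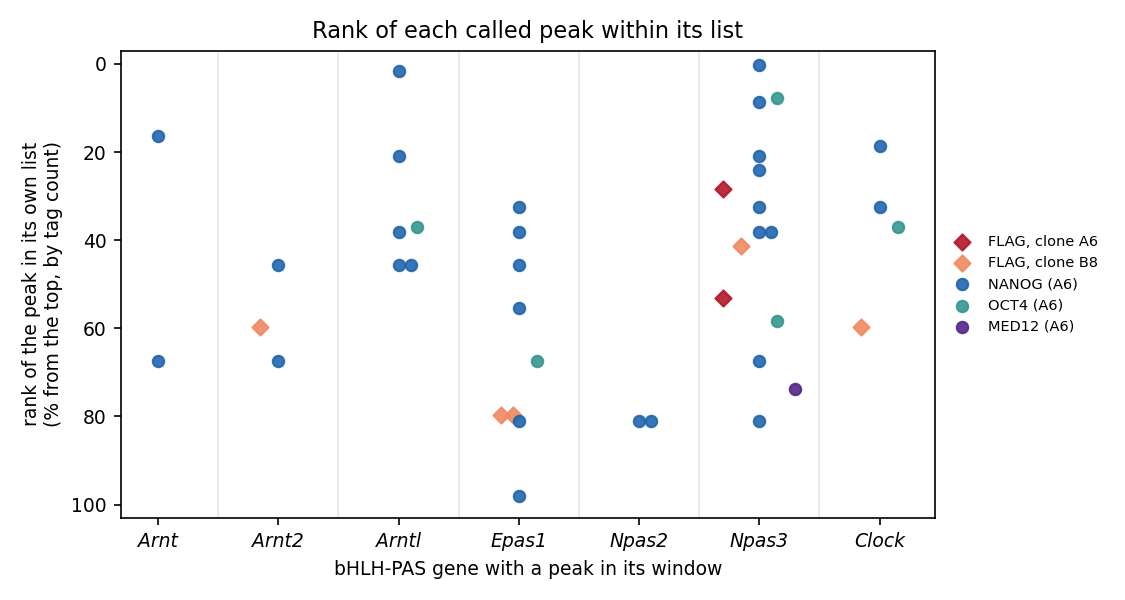
Rank of each called peak within its own list, as a percentage from the top by normalized tag count, for the 7 genes with peaks. FLAG peaks are diamonds and the other factors circles, and peaks of equal rank are drawn side by side. The FLAG peaks lie between 28.3% and 79.7%, whereas the top NANOG peaks of Npas3 and Arntl lie in the top 0.27% and 1.65%.

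Of the 6 positions with a FLAG peak, 5 had a NANOG peak within 100 bp, 3 had OCT4, 1 had MED12 and none had MED1. Genome-wide, 2327 of the 3565 positions of any clone had NANOG. The SIM2 site at Npas3 had NANOG, OCT4 and MED12, which 82.0%, 46.2% and 28.6% of all SIM2 sites had. It lacked MED1, which 12.0% of them had. The Npas3 position called in A6 alone had NANOG and OCT4, against 68.4% and 29.5% of the 1161 such positions. It had neither MED1 (8.1% of them) nor MED12 (16.3%). Of the 4 positions called in B8 alone, 3 had NANOG, against 52.9% of the 946 such positions genome-wide, and 1 had OCT4, against 20.5%. None of the 4 had MED1 or MED12, against 4.44% and 10.1%. The factors were measured in clone A6, which had no FLAG peak at the positions called in B8 alone, so these coincidences join 2 clones. The 5 B8 peaks had peak scores of 11 to 14, where 11 was the lowest in the list and 14 its median.

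Of the 28 NANOG peaks, 21 had no other library within 100 bp, against 74.3% of the 14815 peaks of the list. Over the 28 peaks, the tag counts ran from 2.3 to 38.7 with a median of 7.0, and 15 lay above the median of the whole list, 6.2. The top 10% of the list held 3 of them, 2 at Npas3 and 1 at Arntl. By position, 10 were inside the gene, 10 upstream and 8 downstream.

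Gene length bears on these counts, since a window grows with the gene. The share of protein-coding genes with a SIM2 site was 11.0% (95% Wilson interval 10.5 to 11.6%) for genes under 20 kb and 21.4% (18.9 to 24.1%) for genes over 200 kb. It was 14.7% for 20 to 50 kb, 16.3% for 50 to 100 kb and 19.3% for 100 to 200 kb. Those classes held 2, 4 and 3 of the 10 genes, and none of the 10 was under 20 kb. A FLAG peak in any clone was found at 24.4% of genes under 20 kb and 45.8% of genes over 200 kb. Npas3 was the only one of the 10 genes over 200 kb. Leaving out Npas3, a choice made after seeing the data, left no SIM2 site at the other 9 genes, and the density of FLAG sites of any clone was 1.51 per megabase. The FLAG peaks at Npas3 lay 30.5 and 39.0 kb beyond its 3′ end, in the 100 kb flank that every gene has, and none lay in its body. The part of gene length in the Npas3 result was not tested.

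**Figure D5:**
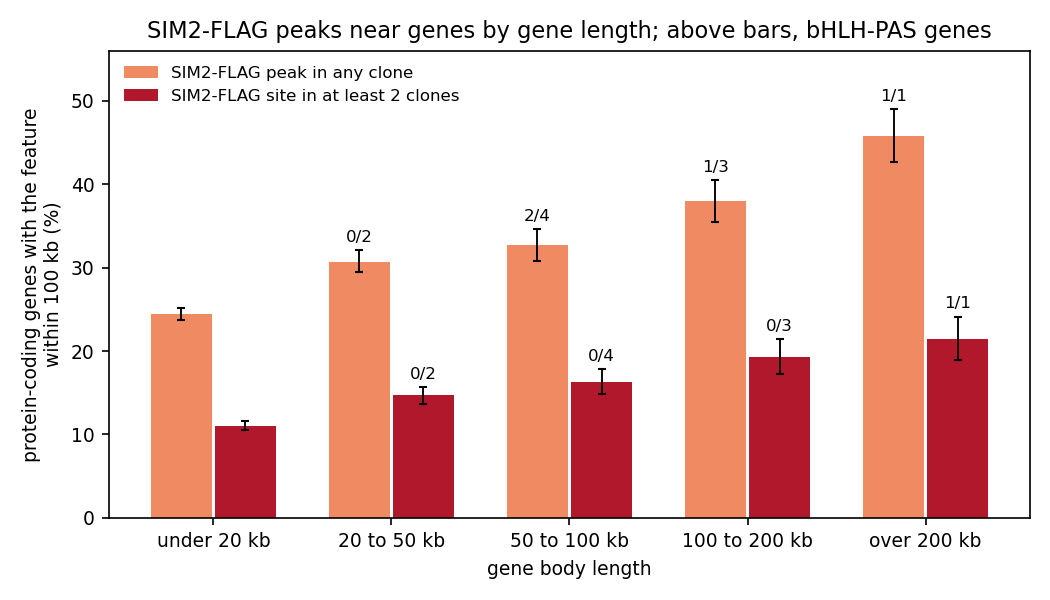
Share of protein-coding genes with a FLAG peak of any clone (orange) or a SIM2 site in at least 2 clones (red) within 100 kb, by gene body length, with 95% Wilson intervals as error bars. The fractions above the bars give the bHLH-PAS genes with the feature over those in the class, and both shares rise with length, from 11.0% to 21.4% for SIM2 sites.

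Genes around the family were counted from lists of 25 genes, of which 6 had a SIM2 site, where 13.4% of all protein-coding genes had one and 4.36% had one in all 3 clones. Of 9 other bHLH-PAS genes, 2 had one, and both encode p160 coactivators. Ncoa1, also a p160 gene of that list, had no site but 2 positions called in 1 clone each. Ncoa2 had 1 site in all 3 clones (A6 31.3, B8 9.5, C4 11.0) with all 4 factors, nearest to the start of Prdm14. Ncoa3 had a site at -16.2 kb from its start in all 3 clones (15.4, 4.8 and 4.4) with NANOG and MED12, and a site of A6 and B8 nearest to Sulf2. No clone had a FLAG peak within 100 kb of Sim2 itself, where 2 NANOG peaks lay.

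Of 5 clock partners, Cry1, a repressor of CLOCK, had 1 site (15.4 in A6, 4.8 in B8), nearest to Fhl4. Of 5 oxygen sensing genes, Egln3 alone had sites, 3 in number, 1 of which is the Npas3 site. Of 6 chaperone and coactivator genes, Hsp90aa1 had 1 site (14.6 in A6, 5.4 in B8) and Hsp90ab1 had 2, of which the stronger was called in all 3 clones (22.3, 6.1 and 5.1). Both encode HSP90, which holds AHR in the cytoplasm. The nearest start at all of these sites of Cry1, Hsp90aa1 and Hsp90ab1 belonged to another gene.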

How the data were processed

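Of the 8 peak lists, 4 came from FLAG ChIP (A6, B8, C4, EB3) and 4 from ChIP of other factors in A6. The authors aligned reads to mm9 with BWA and, once duplicates had been dropped, ran HOMER on every library with its input as background (versions are not given in the sources used here). By their labels, OCT4 and NANOG shared an input, as did MED1 and MED12. The deposited normalized tag count is a signal scaled to library size, the score is the number HOMER gave the authors for a peak, and the deposited fold over the input is a ratio. Each list holds called peaks only. Steps between tag counts give depths of 12.9 to 31.6 M (megatags) per library if the scale is HOMER's default of 10 M. The relation of tag count to score differs between lists, so an inferred depth may be off by a multiple in some of them. SOX2 lists and the factor lists of EB3 were not analysed here.

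Windows ran from 100 kb before to 100 kb beyond each gene of GENCODE vM1 (NCBIM37, the assembly of mm9), and a peak was placed by its centre. All peaks lay within the chromosome lengths of that assembly. FLAG peak centres within 100 bp of each other were merged, and a merged position counted as a site if it had at least 2 clones and no EB3 centre within 100 bp. Coincidence meant a factor peak within 100 bp of the 100 bp site. Motifs were exact matches on both strands in 200 bp, and CACGTG also contains ACGTG on each strand. Peaks were ranked within a list by normalized tag count, ties taking the best rank. No test across genes was run, since all results are counts or descriptions. Intervals are 95% Wilson intervals and, like the limits of a count of 0 (3 peaks of the total), cover counting error only.

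The genes and lists were chosen with earlier results of these data known. All FLAG, OCT4, MED1 and MED12 peaks are named, and of the NANOG peaks the strongest at each gene, those in the top 10% of the list and those with another library. Alternatives covered the window, its anchor, a minimum of 8 times the input, coding transcripts, merging and coincidence distances, the EB3 filter, the number of clones, leaving out each clone, the rank measure and the motif window. Site merging and coincidence were tested on simulated data. Python 3.11.15, numpy 2.4.6, pandas 2.3.3, scipy 1.17.1, matplotlib 3.10.9 and bedtools 2.31.1 were used.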

Additional observations from a re-analysis of the deposited data

How the results depend on the processing

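The SIM2 site at Npas3 was also found, as the only one, with a 50 kb window, coding transcripts, merging at 50 or 200 bp and no EB3 filter. It was lost (0 sites at 0 genes, so 0 with NANOG, OCT4 or MED12) with a 10 kb window, with windows around start sites, with peaks at least 8 times the input and when all 3 clones were required. A 200 kb window gave 5 sites at 3 genes (Arnt, Npas3 and Clock), of which 4 had NANOG, 2 OCT4, 1 MED1 and 3 MED12. Leaving out a clone gave 0 to 1 sites at 0 to 1 genes, with 0 to 1 coinciding with each of NANOG, OCT4 and MED12. The site was lost without A6 or without B8 (replicates 1 and 2), since both remaining clones were then required. Genes with a FLAG peak in any clone numbered 2 with a 10 kb window, 7 with 200 kb, 1 with the 8-fold minimum, and 1 to 4 when a clone was left out (1 without B8). Without Npas3 there were 0 sites at 0 genes.

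The background share of genes with a SIM2 site was 8.36% with 50 kb, 3.50% with 10 kb, 22.5% with 200 kb, 3.24% with the 8-fold minimum, 4.36% with all 3 clones, and 4.46 to 12.8% when a clone was left out. NANOG peaks numbered 18, 12 and 48 with windows of 50, 10 and 200 kb, 14 around start sites and 11 with the 8-fold minimum, which left NANOG at 4 genes. OCT4 peaks numbered 3, 1 and 9 with those windows, 3 around start sites and 1 with the 8-fold minimum. Genes with OCT4 numbered 2 with 50 kb, 1 with 10 kb and 1 with the 8-fold minimum. MED12 had 0 peaks at 0 genes with 10 kb, around start sites and with the 8-fold minimum, and 5 peaks at 4 genes with 200 kb, where MED1 had 2 peaks at 1 gene. In 100 bp windows the motif shares were 9.85% for ACGTG, 7.89% for GCGTG, 1.30% for CACGTG, 5.21% for the octamer and 28.1% for SOX cores, the windows being shorter by construction. Over sites of any clone, ACGTG was in 9.15% and GCGTG in 10.7% of those with NANOG, and the octamer in 3.88% and a SOX core in 32.7% of those without. Of 40 alternative ranks, 34 lay outside the counting interval of the rank by tag count. That interval served as a yardstick only, since it does not measure the error of the rank of a given peak. No paired analysis was possible because no result comes from a test and each factor has 1 library. The lists hold called peaks only, so a weak peak in C4 cannot be told from none.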

Other observations

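Npas4, a bHLH-PAS gene induced by neuronal activity and not among the 10 genes above, had a FLAG peak in the control line. In EB3, which has no FLAG-tagged SIM2, this peak lay 788 bp downstream of the Npas4 start, with a tag count of 20.6, 13.53 times the input and rank 4 of 81. Clone A6 had a peak at the same place, with a tag count of 14.6 and 8.68 times the input. The position was therefore not counted as SIM2, and it was 1 of the 10 removed by the EB3 filter.

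Past the far side of Egln3, a further SIM2 site of A6 (tag count 12.0) and B8 (4.8) lay at -29.6 kb from the Egln3 start, which is 161.3 kb beyond the 3′ end of Npas3, with no peak of NANOG, OCT4, MED1 or MED12 within 100 bp. NANOG (10.8) and OCT4 (5.7) peaks, also upstream of Egln3, lay at 153.1 and 153.2 kb without a FLAG peak. Whether any of these positions acts on Npas3 or Egln3 was not tested.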
